A study of Homo sapiens with 6 samples.

Results

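The circadian clock genes examined here are the 10 core members ARNTL (also called BMAL1), CLOCK, PER1, PER2, PER3, CRY1, CRY2, NR1D1, NR1D2 and DBP, chosen by name. All 10 were found by symbol among the 16536 genes of the deposited table. They were measured in SCC4, an established line of human tongue squamous carcinoma cells, as sphere cells (3 libraries) and parental cells (3 libraries). Sphere cells were obtained by culture in suspension and are described by the submitters as isolated cancer stem cells. Parental cells grew attached to the dish, and no other treatment or genotype is given for either group. SCC4 is a single line, and nothing in the labels ties replicates to separate cultures, so each p-value reflects library-to-library spread that could be technical alone.

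The circadian clock is a transcriptional feedback loop found in most cells. ARNTL and CLOCK pair through their PAS domains, bind E-box sequences and switch on the PER, CRY, NR1D and DBP genes, and the PER and CRY proteins then return to the nucleus and inhibit that pair. In a second loop, the nuclear receptors NR1D1 and NR1D2 (REV-ERB alpha and beta) repress ARNTL through ROR response elements, while DBP carries the rhythm to genes with D-box sequences. Clock transcripts rise and fall over the day in synchronised cells. The labels give neither a time of harvest nor a synchronisation step, so a different phase and a different mean level cannot be told apart in these libraries.

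Among the 10 genes, sphere cells had less mRNA of most negative regulators of the loop, while the activator ARNTL had closely similar values in both groups. Outside the 10, the activator paralogs ARNTL2 and NPAS2 fell and the E-box repressor BHLHE40 rose (log2 fold changes -0.65, -0.65 and 1.83). PER1, PER2, CRY1, CRY2 and NR1D2 fell, as did CLOCK, with PER1, CRY1 and NR1D2 at 37.3%, 38.9% and 35.3% of their parental means. PER3 and DBP went the other way and rose, and ARNTL and NR1D1 did not pass the test. In counts, 8 of the 10 genes were called, against 48.7% of the 15034 genes tested, by limma at a Benjamini-Hochberg adjusted p of 0.05. Of the 10, 6 fell and 2 rose, against 22.9% and 25.8% of genes tested. The median log2 fold change of the 10 genes was -0.46, against 0.04 over all genes tested. Fold changes are sphere over parental on the log2(value + 1) scale, which understates the change of low genes.

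**Figure D1:**
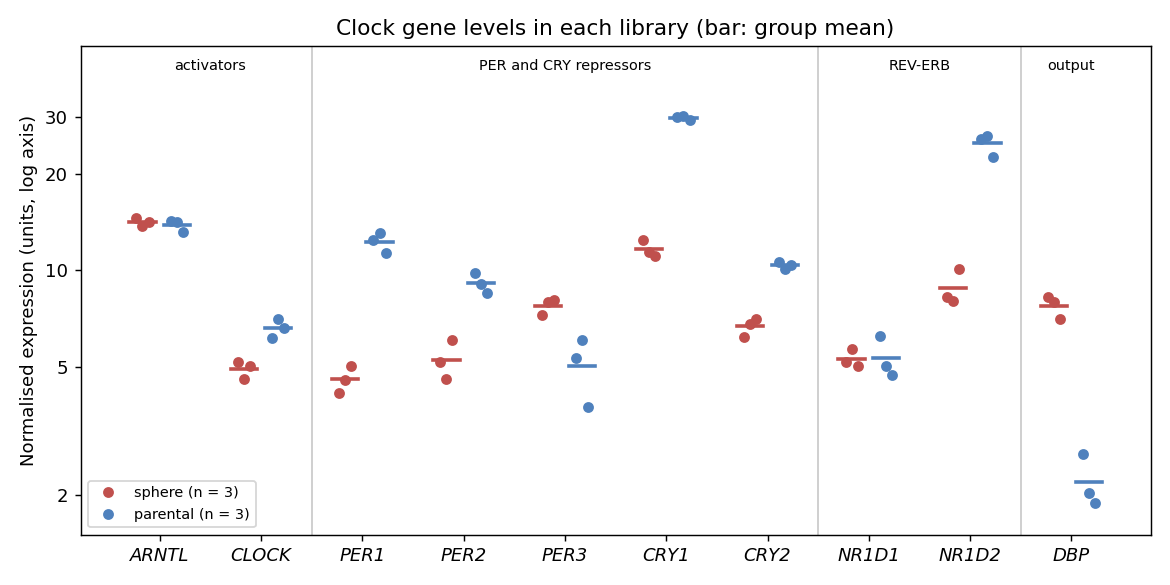
Normalised expression of the 10 clock genes on a log axis in units of the deposited table, with 1 point per library and a bar at the mean of each group of 3. Sphere and parental points do not overlap for CLOCK, PER1, PER2, PER3, CRY1, CRY2, NR1D2 and DBP, and overlap for ARNTL and NR1D1.

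All 10 genes are low to moderate in these cells, and this sets the precision. The deposited values are named TPM, a unit already divided by transcript length, but in each library low values lie on steps of 1 constant, between 0.8864 units in parental replicate 1 and 1.1364 units in sphere replicate 2. A gene at 5 units therefore rests on about 5 steps, and for each gene the fold change was also computed with every library shifted by 0.5 step in the least and in the most favourable direction, called the rounding range below. Column totals lay between 885258 and 1134102 units and are set by the authors' scaling, so read depth is unknown and counting intervals cannot be given. Each sphere library lists 434 genes at 0, against 1504, 644 and 1449 in parental replicates 1 to 3. Some values lie well under 1 step where another library of the group is high. HBA1 had 0.244, 291 and 0.0612 units in sphere replicates 1 to 3, and AHSP had 0.242, 285 and 0.0609 units. A joint adjustment of values across libraries is not described in the sources used here and was not tested. It would make the libraries of a group less independent than limma assumes. Of 12 erythroid markers 6 were in the table, and they summed to 1120 units in sphere replicate 2 and to 1570 and 1170 units in parental replicates 2 and 3, against at most 1.05 units in the other 3 libraries. Without those 3 erythroid-positive libraries a lone parental library remained. In that fit PER1, PER2, CRY1, CRY2, NR1D2 and DBP had log2 fold changes of -1.27, -0.71, -1.29, -0.61, -1.40 and 1.23. All 8 squamous markers were present in all 6 libraries, at summed levels of 25700 to 27200 units in sphere cells and 6650 to 7410 units in parental cells. Most of the sum is KRT5 and KRT14, and 6 of the 8 rose while CDH1 and EPCAM fell (log2 fold changes -0.50 and -0.67, limma adjusted p = 0.000192 and 0.000363). Lower RNA per cell and fewer cells with a transcript cannot be told apart in such bulk libraries. The 3 fibroblast markers in the table, of 6 on the list, summed to 25.2 to 30.2 units in sphere cells and 7.53 to 9.77 units in parental cells, mostly LUM in sphere cells. LUM rose and COL1A1 fell (log2 fold changes 3.54 and -0.36, limma adjusted p = 1.08e-05 and 0.0258), and the part of these markers in the clock gene values was not tested.

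The start regions of 9 of the 10 genes hold letters of motifs known from the clock loop, and stretches from 6 are given as examples of each motif in genes that fell (PER1, NR1D2, PER2, CRY1), rose (PER3) or did not pass the test (ARNTL). Only windows with a match are shown, and ARNTL, NR1D2 and PER3 each have a second start whose window held no match. The sequences are RefSeq windows of build GRCh38.p14, printed 5′ to 3′ on the strand of the gene, with matches to clock motifs in capitals.
PER1: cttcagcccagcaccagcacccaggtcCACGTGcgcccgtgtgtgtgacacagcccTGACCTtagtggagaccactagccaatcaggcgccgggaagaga
NR1D2: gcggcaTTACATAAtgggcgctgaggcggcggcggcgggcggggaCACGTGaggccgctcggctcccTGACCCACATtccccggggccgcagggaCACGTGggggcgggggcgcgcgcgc
PER2: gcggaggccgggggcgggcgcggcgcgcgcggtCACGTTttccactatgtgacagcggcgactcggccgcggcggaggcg
CRY1: gtaaacacacttcagaAACGTGaggtgccg
PER3: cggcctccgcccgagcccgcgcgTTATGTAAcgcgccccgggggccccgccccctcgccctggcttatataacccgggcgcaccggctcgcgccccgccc
ARNTL: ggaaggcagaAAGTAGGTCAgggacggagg

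The PER1 stretch is chr17:8152505-8152604 on the minus strand and holds the E-box CACGTG 173 bases before the start, with the nuclear receptor half-site AGGTCA, on the other strand, 144 bases before it. NR1D2 (chr3:23945921-23946040, plus strand) holds CACGTG at 155 and 105 bases before the start, a D-box TTATGTAA on the other strand at 194 bases, and a ROR response element between the E-boxes. In PER2 (chr2:238288761-238288840, minus strand) and CRY1 (chr12:107093625-107093654, minus strand) the capitals mark the E-box variant CACGTT, which in CRY1 is on the other strand, at 197 and 89 bases before the start. PER3 (chr1:7784091-7784190, plus strand) holds the D-box at 177 bases before its start, and ARNTL (chr11:13277807-13277836, plus strand) a ROR response element, with AGGTCA inside it, that begins at base 28 of the transcript.

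Each motif was searched on both strands of windows from 250 bases before to 50 bases after a start, with 1 or 2 starts per gene. Counting a gene once if any of its windows held the letters, CACGTG was in 2 of the 10 genes (PER1 and NR1D2) and in 8.77% of the 27305 genes of the RefSeq table. CACGTT was in 5 (CLOCK, PER2, CRY1, CRY2 and NR1D1), against 6.44% of genes. TTATGTAA was in 2 (PER3 and NR1D2), against 1.13%, the ROR response element in 3 (ARNTL, CLOCK and NR1D2), against 0.835%, and AGGTCA in 3 (ARNTL, CRY2 and PER1), against 16.5%. The DBP window held none of these letters. CACGTG or CACGTT was in a window of each of the 6 genes that fell and of NR1D1, which was not called, and in no window of PER3, DBP or ARNTL. The share of all genes with either of these was not computed, and sequence outside the windows was not searched. Whether the letters go with the direction of change was not tested. The D-box stood before PER3, which rose, and NR1D2, which fell. A match is a description of letters, with no test, and binding was not measured.

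Of the activators, ARNTL did not pass the test and CLOCK fell. ARNTL, which carries the transactivation domain of the pair, had 14.5, 13.7 and 14.1 units in sphere replicates 1 to 3, against 14.2, 14.1 and 13.2 units in parental replicates 1 to 3. The groups overlapped over a narrow range, and the difference was 0.02 on the log2 scale (95% interval -0.11 to 0.15, limma adjusted p = 0.73). CLOCK, its partner, stood at 5.17, 4.57 and 5.04 units in sphere cells, against 6.17, 7.06 and 6.61 units in parental cells. All sphere libraries lay below all parental ones, with a log2 fold change of -0.36 (SE 0.0779, limma adjusted p = 0.0108) and a rounding range of -0.58 to -0.14. The gap is small in steps, 5, 4 and 5 against 7, 7 and 7, and the call ended without the 3 libraries with erythroid transcripts (-0.23, limma adjusted p = 0.193). CLOCK overlaps TMEM165 on the opposite strand over 25495 bases in GENCODE release 29, and whether counting used strand is not given in the sources used here. TMEM165 had 115, 114 and 113 units in sphere cells, against 92.2, 90.8 and 91.7 units in parental cells, and rose (log2 fold change 0.31, limma adjusted p = 0.000499).

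Among the repressors, CRY1 had the smallest adjusted p of the 10 genes. CRY1, the stronger repressor of the cryptochrome pair in textbook accounts, had 12.4, 11.4 and 11.1 units in sphere cells, against 30.1, 30.3 and 29.3 units in parental cells. No library came near the other group, and the log2 fold change was -1.29 (SE 0.0545, limma adjusted p = 2.48e-05). CRY2 had 6.21, 6.82 and 7.06 units in sphere cells, against 10.6, 10.1 and 10.4 units in parental cells. It also fell, by less, with a log2 fold change of -0.56 (SE 0.0657, limma adjusted p = 0.000907). The log2 ratio of CRY1 over CRY2 within a library, which does not depend on the scaling between libraries, was 1.0, 0.74 and 0.65 in sphere cells, against 1.5, 1.58 and 1.49 in parental cells. CRY1 thus made up 61.1% to 66.6% of the CRY transcripts in sphere cells and 73.8% to 75% in parental cells. The sum of CRY1 and CRY2 was 18.3 ± 0.249 units in sphere cells and 40.3 ± 0.55 units in parental cells (SD, n = 3 each).

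The PER genes, whose proteins hold the repressor complex together, split by member. PER1, a PER gene that outside signals induce rapidly, had 4.14, 4.56 and 5.04 units in sphere cells, against 12.4, 13.1 and 11.3 units in parental cells. The groups were far apart, at 4, 4 and 5 steps against 14, 13 and 12 steps. Its log2 fold change was -1.25 (SE 0.0889, limma adjusted p = 0.000155), with a rounding range of -1.45 to -1.07. PER2 had 5.17, 4.59 and 6.05 units in sphere cells, against 9.77, 9.08 and 8.49 units in parental cells. It fell with a log2 fold change of -0.69 (SE 0.105, limma adjusted p = 0.00264), without overlap of the groups.

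PER3, the PER gene that is dispensable for the rhythm in mice, had 7.24, 7.95 and 8.07 units in sphere cells, against 5.32, 6.05 and 3.75 units in parental cells. Every sphere library was above every parental one, although parental replicate 3 lay well below its group. The log2 fold change was 0.55 (SE 0.155, limma adjusted p = 0.0284), with a rounding range of 0.35 to 0.76. Of the 8 calls it was the one lost in most alternatives. It ended without sphere replicate 1, 2 or 3 (limma adjusted p = 0.0609, 0.0901 and 0.0872) and without parental replicate 1 (0.0559). It also ended with the authors' scaling undone (limma adjusted p = 0.101) and with quantile normalization (0.103). Without the 3 libraries with erythroid transcripts the call ended too, with a log2 fold change of 0.45. The PER3 change stayed positive in each of these fits.

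**Figure D2:**
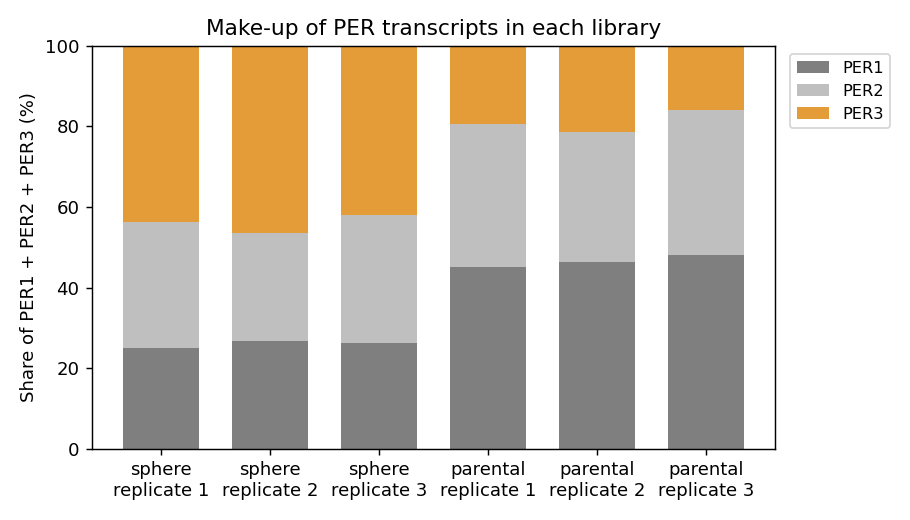
Share of PER1, PER2 and PER3 in the sum of the PER units of each library, in percent, with 1 bar per library. PER3 makes up 42.1% to 46.5% in the sphere libraries and 15.9% to 21.4% in the parental libraries.

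The make-up of the PER transcripts therefore differed in every library. PER3 was the most abundant PER gene in sphere cells, at 43.7%, 46.5% and 42.1% of the PER sum, against 19.4%, 21.4% and 15.9% in parental cells. PER1 made up 25%, 26.6% and 26.3% in sphere cells, against 45.1%, 46.4% and 48.1% in parental cells, where it ranked highest. The log2 ratio of PER1 over PER3 within a library was -0.81, -0.80 and -0.68 in sphere cells, against 1.22, 1.12 and 1.59 in parental cells. The 3 PER genes together had 17.6 ± 1.37 units in sphere cells and 26.4 ± 2.52 units in parental cells (SD, n = 3 each). These shares assume that the deposited unit is per length, as its name says.

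The REV-ERB genes differed from each other as well. NR1D2, which encodes REV-ERB beta, had 8.28, 8.0 and 10.1 units in sphere cells, against 25.7, 26.2 and 22.6 units in parental cells. This was the largest fall of the 10 genes, a log2 fold change of -1.41 (SE 0.102, limma adjusted p = 0.000168), and the groups were well apart. NR1D1, which encodes REV-ERB alpha, had 5.17, 5.67 and 5.04 units in sphere cells, against 6.24, 5.04 and 4.71 units in parental cells. The groups overlapped, and the 95% interval of its log2 fold change ran from -0.27 to 0.27 (limma adjusted p = 0.987), so falls or rises within that interval are not excluded. Within a library the log2 ratio of NR1D1 over NR1D2 was -0.68, -0.5 and -1.0 in sphere cells, against -2.04, -2.38 and -2.27 in parental cells.

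The NR1D1 value carries a further limit. Its 3′ end overlaps the thyroid hormone receptor gene THRA on the opposite strand, over 1081 bases in GENCODE release 29. THRA had 8.29, 10.2 and 10.1 units in sphere cells, against 3.52, 3.03 and 4.75 units in parental cells, and rose (log2 fold change 1.15, limma adjusted p = 0.00158). Reads of the 2 genes may have been mixed, and the part of THRA in the NR1D1 value was not tested. NR1D2 overlaps NKIRAS1 on the opposite strand over 1332 bases. NKIRAS1 had 7.23, 6.82 and 6.05 units in sphere cells, against 10.7, 9.08 and 10.4 units in parental cells. It fell, as NR1D2 did (log2 fold change -0.52, limma adjusted p = 0.00474), and its part in the NR1D2 value was not tested.

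DBP, the output activator of the PAR bZIP family, rose most. It had 8.26, 7.95 and 7.06 units in sphere cells, against 2.68, 2.02 and 1.88 units in parental cells. The groups did not overlap, at 8, 7 and 7 steps against 3, 2 and 2 steps. The means were 7.76 ± 0.623 units in sphere cells and 2.19 ± 0.426 units in parental cells (SD, n = 3 each), a ratio of 3.54. The log2 fold change was 1.46 (SE 0.119, limma adjusted p = 0.000248), with a rounding range of 1.17 to 1.78. The gene SPHK2, which overlaps DBP over 688 bases on the opposite strand, had 4.13, 3.44 and 4.03 units in sphere cells, against 3.52, 4.03 and 3.78 units in parental cells. It did not pass the test (limma adjusted p = 0.825).

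**Figure D3:**
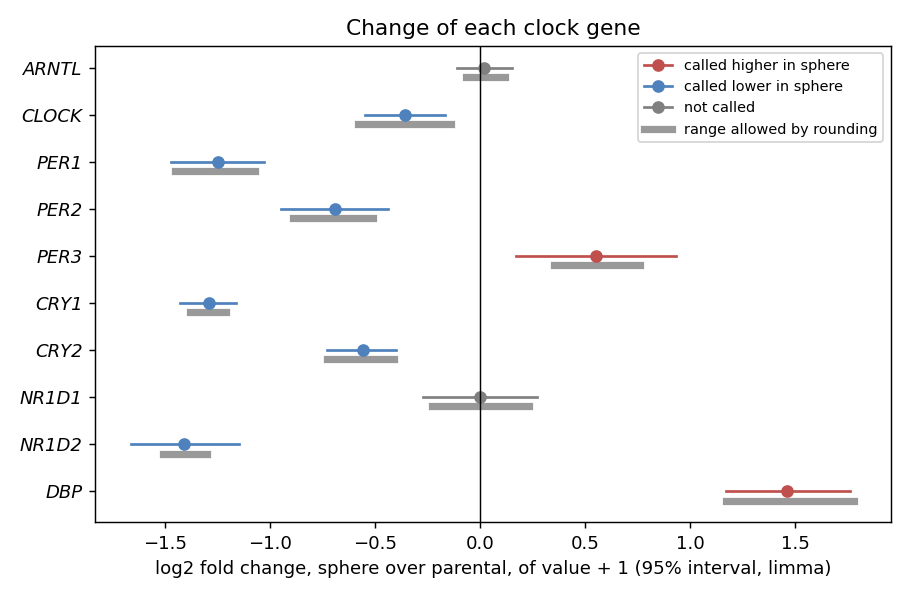
Log2 fold change of each clock gene, sphere over parental, on the log2(value + 1) scale, with its 95% interval from limma (thin line) and the range that rounding to steps allows (thick grey line). Of the 10 genes, 6 are called lower and 2 higher, and the rounding ranges of these 8 do not reach 0.

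The sizes of these changes can be set against all genes. A called fall of at least 1 on the log2 scale was seen in 3 of the 10 genes (PER1, CRY1 and NR1D2) and in 2.35% of genes tested. A called rise of that size was seen in DBP and in 8.09% of genes tested. Sphere and parental libraries did not overlap in 8 of the 10 genes, against 65% of genes tested. The sphere libraries were all lower in 6 genes, against 27.5% of genes tested, and all higher in 2, against 37.6%. Undoing the authors' scaling put the median log2 fold change over genes tested at -0.101, against 0.045 as deposited, and gave ARNTL a value of -0.13 (limma adjusted p = 0.311). Relative to the median of all genes as deposited, PER1, CRY1 and NR1D2 stood at -1.30, -1.34 and -1.45 and DBP at 1.42.

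Ratios within a library are free of that scaling. Relative to ARNTL, 8 of the other 9 genes did not overlap between groups, with NR1D1 as the exception, against 61.4% of the 15033 other genes tested. The log2 ratio of CRY1 over ARNTL was -0.22, -0.26 and -0.35 in sphere cells, against 1.09, 1.10 and 1.15 in parental cells, so CRY1 lay below ARNTL in all sphere libraries and above it in all parental ones. For NR1D2 over ARNTL it was -0.81, -0.77 and -0.49 in sphere cells, against 0.86, 0.89 and 0.78 in parental cells. Ratios among PER1, CRY1 and NR1D2 differed less, which follows from picking the 3 genes with the largest falls. PER1 over CRY1 was -1.58, -1.32 and -1.14 in sphere cells, against -1.28, -1.21 and -1.37 in parental cells. CRY1 over NR1D2 was 0.58, 0.51 and 0.14 in sphere cells, against 0.23, 0.21 and 0.37 in parental cells, and the groups overlapped in both ratios. Of the 17 ratios computed, none with a test, the largest shift was that of DBP over NR1D2, whose mean was -0.18 ± 0.29 in sphere cells and -3.52 ± 0.23 in parental cells (log2, SD, n = 3 each). This pair joins the gene that rose most with the gene that fell most, so its place follows from their fold changes. Parental DBP rests on 3, 2 and 2 steps, and no rounding range was computed for these ratios.

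**Figure D4:**
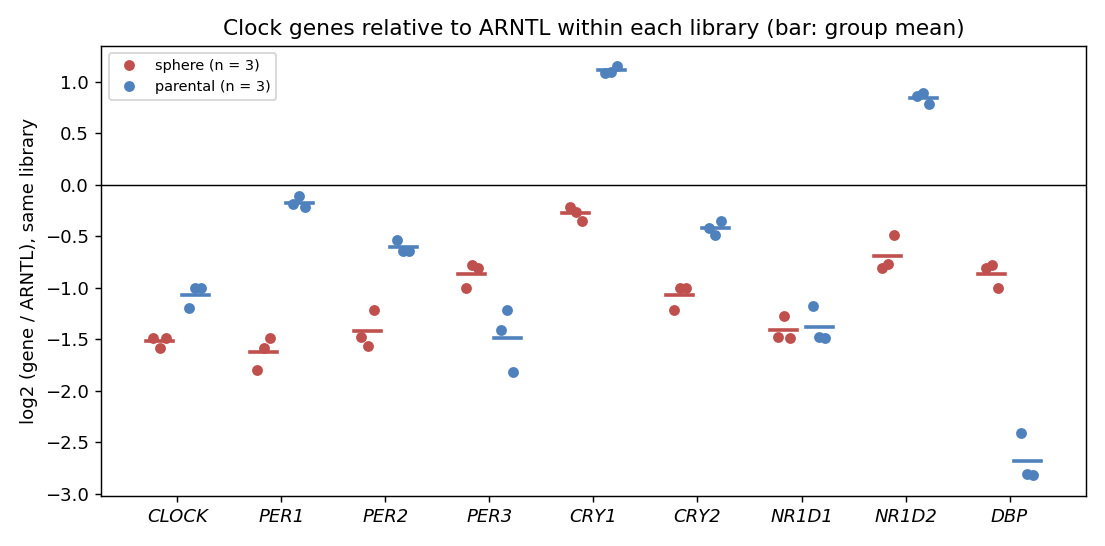
Log2 ratio of each clock gene to ARNTL in the same library, with 1 point per library and a bar at the group mean of 3. CRY1 and NR1D2 lie below 0 in the sphere libraries and above 0 in the parental libraries, and NR1D1 overlaps between the groups.

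The order of the levels changed accordingly. In sphere cells ARNTL was highest, with a mean of 14.1 units, followed by CRY1 at 11.6 and NR1D2 at 8.79 units. NR1D2 overlapped DBP, DBP overlapped PER3, and NR1D1, PER2, CLOCK and PER1 overlapped in turn at the low end, between 4.58 and 5.29 units. In parental cells CRY1 was highest at 29.9 units, followed by NR1D2 at 24.9, ARNTL at 13.8, PER1 at 12.3, CRY2 at 10.4 and PER2 at 9.11 units, each without overlap with the next. There CLOCK, NR1D1 and PER3 overlapped in turn, and DBP was lowest at 2.19 units. PER1 thus ranked lowest of the 10 in sphere cells and DBP lowest in parental cells.

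Other genes of the clock pathway were mostly lower too. Of 39 genes on the wider list, 33 were in the table and 32 were tested, and of these 18 fell, 4 rose and 10 did not pass the test, where 22.9% of all genes tested fell and 25.8% rose. Their median log2 fold change was -0.26, against 0.04 over all genes tested. Without the 3 libraries with erythroid transcripts 11 of the 32 fell and 3 rose, where 17% of all genes tested fell and 23.3% rose in that fit. With the authors' scaling undone 17 fell and 2 rose, as the calls of USP7 and NONO ended, where 25.1% of all genes tested fell and 15.2% rose.

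Both tested paralogs of the activators fell. ARNTL2, which can replace ARNTL as the partner of CLOCK, had 23.8, 22.7 and 23.2 units in sphere cells, against 37.2, 36.3 and 37.8 units in parental cells (log2 fold change -0.65, limma adjusted p = 8.59e-05). It was the more abundant of the ARNTL pair in every library. NPAS2, which can replace CLOCK, had 2.08, 2.29 and 3.02 units in sphere cells, against 4.42, 5.04 and 3.76 units in parental cells (log2 fold change -0.65, limma adjusted p = 0.0116). The NPAS2 call ended without the 3 libraries with erythroid transcripts. Its log2 fold change in that fit, which has a lone parental library, was -0.62. Summed with their paralogs, ARNTL and ARNTL2 had 37.3 ± 0.915 units in sphere cells and 51 ± 0.499 units in parental cells (SD, n = 3 each).

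BHLHE40, also called DEC1, rose, with a larger fold change than any of the 10 core genes. It encodes an E-box repressor that binds the same sequence as the ARNTL and CLOCK pair, and it is also induced by low oxygen and other signals. It had 136, 132 and 138 units in sphere cells, against 38.1, 34.3 and 39.7 units in parental cells (log2 fold change 1.83, SE 0.0616, limma adjusted p = 1.3e-05). The ratio of its sphere to parental means was 3.62, near the 3.54 of DBP, a low gene whose change that scale understates. BHLHE41, the paralog of BHLHE40, had 5.16, 3.46 and 4.03 units in sphere cells, against 4.42, 4.04 and 4.73 units in parental cells, and did not pass the test.

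The other D-box factors moved against DBP. TEF, a PAR bZIP activator like DBP, had 12.4, 12.5 and 12.1 units in sphere cells, against 21.3, 21.2 and 19.8 units in parental cells (log2 fold change -0.71, limma adjusted p = 0.000143). NFIL3, which represses at the same sequence, had 46.5, 44.3 and 42.4 units in sphere cells, against 76.3, 75.6 and 71.8 units in parental cells (log2 fold change -0.74, limma adjusted p = 0.000125). DBP made up 36.8% to 40% of the sum of DBP and TEF in sphere cells and 8.65% to 11.2% in parental cells. That sum was 20.1 ± 0.812 units in sphere cells and 23 ± 1.15 units in parental cells (SD, n = 3 each).

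**Figure D5:**
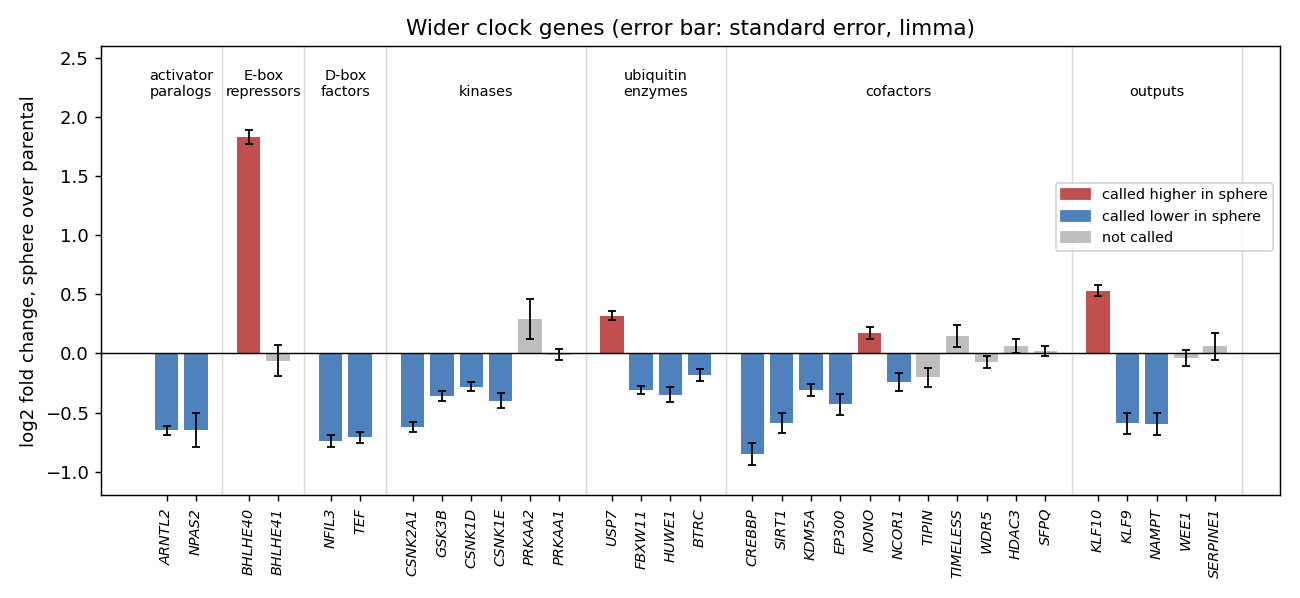
Log2 fold change, sphere over parental on the log2(value + 1) scale, of 32 wider clock genes by role, with limma standard errors. BHLHE40 stands out as a rise of 1.83, and 18 genes are called lower against 4 higher, of which USP7 and NONO lose the call when the authors' scaling is undone.

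Enzymes that set the stability of PER and CRY proteins had fold changes of at most 0.62 in size. Of 6 kinases, 4 fell and 0 rose, against 22.9% and 25.8% of all genes tested. The casein kinase genes CSNK1D and CSNK1E, whose products mark PER proteins for degradation, had log2 fold changes of -0.28 and -0.40 (limma adjusted p = 0.0023 and 0.00269), GSK3B -0.36 (0.000738) and CSNK2A1 -0.62 (0.000121). Of 4 tested ubiquitin enzymes 3 fell and 1 rose, against the same shares. The genes of the PER ligase subunits, BTRC and FBXW11, fell with log2 values of -0.18 and -0.31, and the BTRC call ended with the authors' scaling undone (limma adjusted p = 0.0519). Without the 3 libraries with erythroid transcripts the calls of BTRC and of HUWE1, a ligase gene for NR1D1, ended too. Their log2 fold changes in that fit were -0.18 and -0.31, against -0.18 and -0.35 with all libraries.

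Of 11 cofactor genes, 5 fell and 1 rose, against 22.9% and 25.8% of all genes tested. The acetyltransferase genes CREBBP and EP300, coactivators of the ARNTL and CLOCK pair, had log2 fold changes of -0.85 and -0.43 (limma adjusted p = 0.000769 and 0.0089). SIRT1, a deacetylase that acts on clock proteins, had 13.4, 13.7 and 15.1 units in sphere cells, against 19.4, 23.2 and 22.7 units in parental cells. Of the 5 falls, the calls of EP300, SIRT1, KDM5A and NCOR1 ended without the 3 libraries with erythroid transcripts. Their log2 fold changes in that fit were -0.38, -0.42, -0.24 and -0.21, against -0.43, -0.59, -0.31 and -0.24 with all libraries. Of 5 output genes, 2 fell and 1 rose, against the same shares. NAMPT, the rate-limiting enzyme of the NAD salvage pathway, had 103, 97.7 and 99.8 units in sphere cells, against 163, 165 and 132 units in parental cells (log2 fold change -0.60, limma adjusted p = 0.00284). KLF9 fell and KLF10 rose, with log2 fold changes of -0.59 and 0.53. WEE1, a cell cycle kinase gene with E-boxes in mice, had 22.9 ± 1.1 units in sphere cells and 23.6 ± 1.77 units in parental cells (SD, n = 3 each) and did not pass the test (limma adjusted p = 0.626).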

How the data were processed

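Total RNA of 6 SCC4 libraries (3 sphere, 3 parental) was sequenced on a BGISEQ machine as single-end reads, per the labels' protocols. HISAT, Bowtie2 and the mouse build GRCm38.p6 are named, without tool versions, in the submitters' processing notes, although all 16536 identifiers are human. Not given in the sources used here are the quantifier, the annotation and the gene filter. The deposited values are named TPM but are treated as a signal, a normalised expression value, because the column totals differ between libraries and those of 4 libraries exceed what TPM can sum to. Divided by the step of its library, each column summed to between 997978 and 1000569, which is near what TPM sums to. Low values (under 100 units) lay within 0.1 of a whole number of steps in 91.6% to 100% of cases. No count model was run.

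Genes that reached 1 unit in 3 or more libraries were fitted as log2(value + 1) in limma 3.58.1 (R 4.3.3), using a 2-group model, a mean trend, two-sided tests and Benjamini-Hochberg adjustment over all 15034 genes. The fit was tested on simulated data. Errors after ± are SDs. Within-library ratios used no pseudocount. Alternatives changed the pseudocount, the filter, the scaling or the variance model, added a replicate block, or averaged or left out libraries. The 10 genes, the lists and the alternatives were chosen with earlier results of these data known. Of the genes on the lists, 1 is not reported here. Every core gene is named, and at most 4 tested genes per list with the smallest p are given values. NONO, NCOR1, FKBP5, the squamous and fibroblast markers and the overlapping neighbours other than THRA were added after their values were seen.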

Additional observations from a re-analysis of the deposited data

How the results depend on the processing

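Over 17 alternatives, the fold changes of the 10 clock genes gave 169 values, of which 158 kept their side of the threshold and, where called, their direction, 11 lost the call and 0 reversed. The 11 were 9 for PER3 and 2 for CLOCK. PER1, PER2, CRY1, CRY2 and NR1D2 stayed called in all 17 fits and DBP in all 16 that tested it, with values of -1.41 to -0.85 for PER1, -0.83 to -0.46 for PER2, -1.45 to -1.07 for CRY1, -0.71 to -0.39 for CRY2, -1.56 to -1.12 for NR1D2 and 0.83 to 1.79 for DBP. The number of core genes called higher was 1 with a filter on a mean of at least 5 units (which leaves DBP untested), quantile normalization, the authors' scaling undone, sphere replicates 1 and 3 averaged or the 3 libraries with erythroid transcripts left out, and 1 to 2 with single libraries left out. With the last 3 libraries left out, 5 core genes were called lower, and 14 wider clock genes were called, 11 of them lower, in a fit that assumes the lone parental library to vary like the sphere pair. With the scaling undone, 2 wider clock genes and 2283 of all genes were called higher, 37.7% of all calls against 53% as deposited. With the replicate number as a block, 1 core gene was called higher and 5 lower (PER3 adjusted p = 0.0608, CLOCK 0.0533, limma). In that fit 6176 of all genes were called, 3336 higher and 2840 lower. Nothing in the labels says that a number marks a shared culture. Deviations of same-numbered libraries correlated at 0.329, 0.121 and -0.273, and not every library correlated best with its own number. Deviations from a mean of 3 libraries are tied to each other, so these correlations cannot decide whether the numbers pair the libraries. The causes of these changes were not tested. Steps of about 1 unit limit what can be seen in genes under about 5 units.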

Other observations

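Lists of immediate early and glucocorticoid-responsive genes were also counted. Of 6 immediate early genes, 5 rose and 1 fell, against 25.8% and 22.9% of all genes tested. FOS had 105, 104 and 99.8 units in sphere cells, against 5.32, 5.04 and 4.71 units in parental cells, and EGR1 had 429, 420 and 426 units in sphere cells, against 19.5, 20.2 and 21.8 units in parental cells. JUNB rose as well, with a log2 fold change of 2.36 (limma adjusted p = 2.23e-06), and ATF3 fell with -1.17 (1.03e-05). Of 5 tested glucocorticoid-responsive genes, 2 rose and 0 fell, against the same shares. SGK1 had 135, 132 and 136 units in sphere cells, against 20.4, 20.2 and 18.9 units in parental cells, and TSC22D3 a log2 fold change of 0.70 (limma adjusted p = 0.000496). FKBP5 had 7.75 ± 0.445 units in sphere cells and 7.88 ± 0.756 units in parental cells (SD, n = 3 each) and did not pass the test. DUSP1, which is on this list, was called lower only with the authors' scaling undone among the scalings tried (-0.37, limma adjusted p = 0.0239).

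Of all tested genes averaging 5 units or more, the 5 whose profile over the 6 libraries was most like that of DBP were MXI1, IGFBP6, AIM2, ZFP36 and HOXA-AS2. Likeness was the root mean square difference of log2(value + 1) after centring each gene on its own mean, and it was 0.054, 0.075, 0.08, 0.084 and 0.085. MXI1 had 30, 30.6 and 29.2 units in sphere cells, against 12.5, 10.1 and 9.42 units in parental cells, with parental replicate 1 the highest of its group, as in DBP.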
